A study of Mus musculus with 7 samples.

Results

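The 10 genes described here, Ltf, Camp, Ngp, Lcn2, Cd177, Itgb2l, Mmp8, Mmp9, Chil3 and Lrg1, encode granule and surface proteins of neutrophils that are grouped here under the secondary granules, although gelatinase (Mmp9) belongs to the tertiary granules. They are 10 of 19494 genes with a named row on the Clariom S Mouse array, each with a single transcript cluster, the group of probes that reports a gene. The genes were chosen by their symbols, with the difference between treated and control mice in earlier results of these data already known. Their difference is therefore a description and no independent evidence about secondary granules. The RNA came from splenic CD45+CD11b+ cells, a gate that takes in neutrophils, monocytes and macrophages, on day 14 after allogeneic hematopoietic cell transplantation (allo-HCT). Of the recipients, 4 received Y-27632, an inhibitor of the kinases ROCK1/2 (R1 to R4), and 3 received vehicle (V2 to V4). All 7 were wildtype BALB/cAnN recipients given 2 irradiations of 5 Gy, 5000000 bone marrow cells and 300000 T cells from C57BL6/N donors, a model of acute graft-versus-host disease (aGVHD) that both groups share. The inhibitor was injected intraperitoneally at 8 mg/kg in 100 µl for 10 days from day 4, and vehicle mice received 100 µl PBS. The methods give an age of 6 to 14 weeks for mice of the study. Each sample was read as 1 mouse, although no source used here says whether cells of several mice were pooled. The description field of the labels gives CXCL12-abundant reticular cells instead, whereas cell type and tissue give CD11b+ CD45+ spleen, and in the data the genes of both sorting markers, Itgam and Ptprc, lay above the upper quartile of every array.

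Neutrophils fill their granules in waves as they mature in the bone marrow. Primary granules, with myeloperoxidase and elastase, are made in promyelocytes. Secondary or specific granules, with lactoferrin, lipocalin-2 and cathelicidin, follow in myelocytes and metamyelocytes under the transcription factor C/EBPε, and tertiary granules, with gelatinase, come last. The mRNAs of the granule proteins are most abundant at these bone marrow stages and fall in mature neutrophils, which carry the protein. Secondary granules also hold a store of surface proteins, among them the integrin CD11b/CD18, that reaches the plasma membrane when a neutrophil is activated.

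The first 250 bases before the RefSeq start of a gene are shown for the 4 genes that were lower with the inhibitor and for Ngp, a granule gene that did not pass the test, to let the regions be compared (assembly GRCm38.p6). They run 5′ to 3′ on the strand of the gene. Capitals mark a C/EBP-type motif, TTNNGCAA, or a PU.1-type motif, GAGGAA, on either strand, where TTGCNNAA and TTCCTC are the reverse forms.
Ltf, chr9:111019042-111019291, plus strand: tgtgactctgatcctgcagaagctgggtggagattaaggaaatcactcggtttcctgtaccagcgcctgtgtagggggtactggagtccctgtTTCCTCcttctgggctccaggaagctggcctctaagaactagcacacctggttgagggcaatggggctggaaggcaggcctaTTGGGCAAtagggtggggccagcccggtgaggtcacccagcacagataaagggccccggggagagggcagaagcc
Cd177, chr7:24760312-24760561, minus strand: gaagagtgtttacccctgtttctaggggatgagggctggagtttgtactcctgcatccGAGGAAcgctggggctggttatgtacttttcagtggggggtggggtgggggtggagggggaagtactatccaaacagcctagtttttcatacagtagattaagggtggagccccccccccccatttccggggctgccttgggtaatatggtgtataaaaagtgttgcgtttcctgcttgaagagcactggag
Itgb2l, chr16:96443615-96443864, minus strand: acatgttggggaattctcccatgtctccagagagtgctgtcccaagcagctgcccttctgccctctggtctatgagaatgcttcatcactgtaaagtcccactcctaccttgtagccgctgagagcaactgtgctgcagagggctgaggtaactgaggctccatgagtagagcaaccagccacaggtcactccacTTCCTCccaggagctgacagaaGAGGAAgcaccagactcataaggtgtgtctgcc
Lrg1, chr17:56121947-56122196, minus strand: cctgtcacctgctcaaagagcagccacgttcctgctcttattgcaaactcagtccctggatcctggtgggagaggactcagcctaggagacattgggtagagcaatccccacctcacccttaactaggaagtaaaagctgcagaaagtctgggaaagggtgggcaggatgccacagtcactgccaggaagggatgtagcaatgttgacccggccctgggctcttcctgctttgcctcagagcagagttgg
Ngp, chr9:110419558-110419807, plus strand: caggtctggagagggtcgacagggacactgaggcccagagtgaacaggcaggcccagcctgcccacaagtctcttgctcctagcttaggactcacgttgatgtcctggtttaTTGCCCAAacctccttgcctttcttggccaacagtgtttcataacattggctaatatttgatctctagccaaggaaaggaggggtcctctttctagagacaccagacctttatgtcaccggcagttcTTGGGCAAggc

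In these windows the C/EBP-type motif lay 75 to 68 bases before the start of Ltf, and 138 to 131 and 11 to 4 bases before the start of Ngp. Of the 9 members with a promoter in the RefSeq table (all but Mmp9), 4 held this motif, namely Ltf, Ngp, Lcn2 and Mmp8, against 9.56% of 32851 promoters of the same length. The PU.1-type motif occurred in Ltf, Lcn2, Cd177, Itgb2l and Mmp8, against 23.3% of all promoters. No match of either motif lay in the windows of Lrg1, Camp and Chil3. The motifs did not overlap each other in any member. Camp, Ngp, Ltf and Mmp8 all lie on chromosome 9, Lcn2 and Mmp9 on chromosome 2, and the remaining 4 genes on chromosomes 3, 7, 16 and 17. A match is a matter of letters only, and neither binding of a factor nor the distance to other regulatory regions was measured here.

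Of the 10 genes, 4 were lower with ROCK1/2-inhibition past an adjusted p of 0.05 from limma, none was higher and 6 did not pass. Over all 22139 transcript clusters tested, 2.23% passed, 1.17% in the lower and 1.06% in the higher direction. The median log2 fold change of the 10 genes was −0.28, with 9 below 0, against 0.0049 over all transcript clusters. The groups of mice did not overlap for 5 of the 10 genes, each lower with the inhibitor, while 7.03% of all transcript clusters showed this in the lower and 6.22% in the higher direction. Values are log2 intensities after Robust Multi-Array Average (RMA) normalization by the authors, so a difference of 1 is a doubling of brightness. In RNA from a mixed cell sort, fewer cells of a type and less RNA per cell cannot be told apart.

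**Figure D1:**
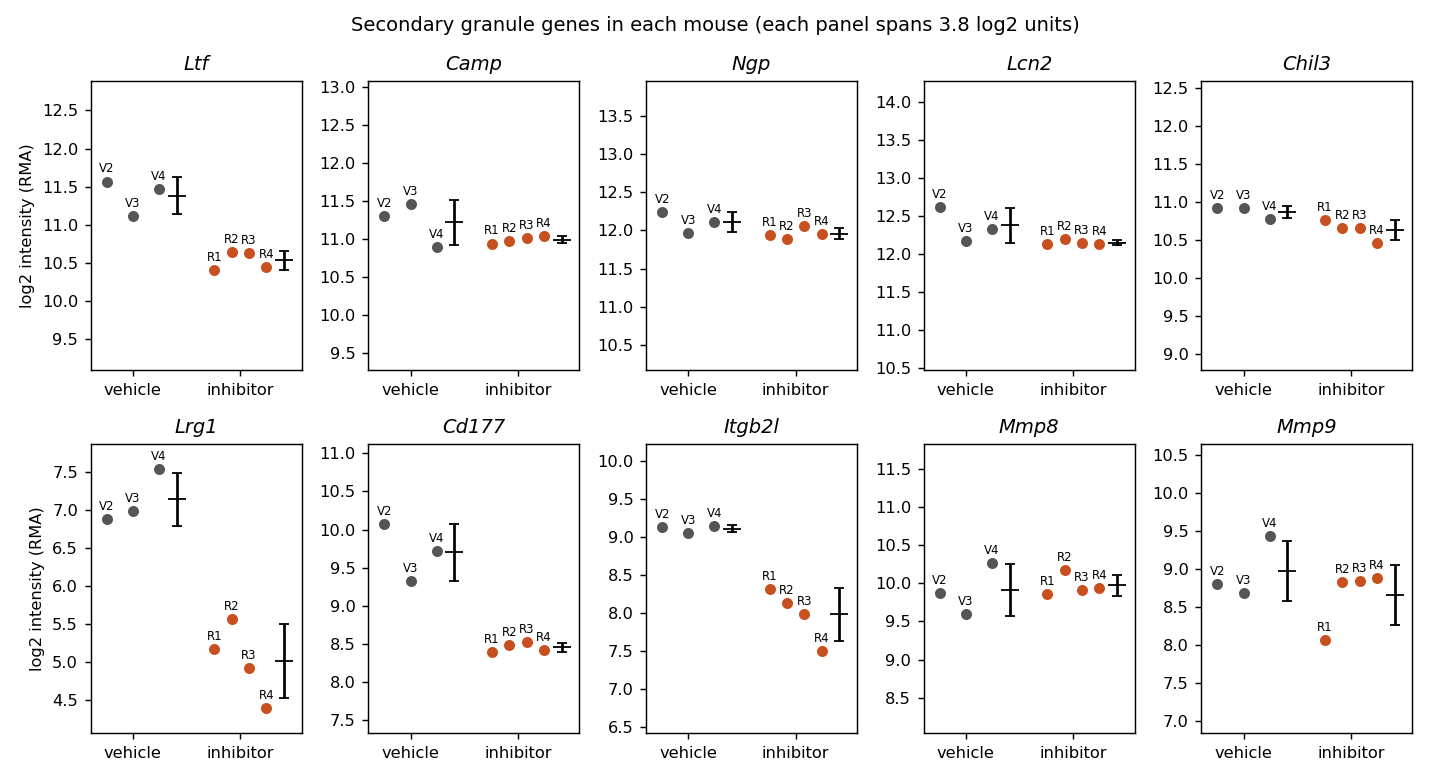
Log2 intensity of each of the 10 genes in every mouse, vehicle in grey and ROCK1/2-inhibitor in orange, with the mean and SD of each group as a bar beside the points (n = 3 and 4). Each panel spans 3.8 log2 units on its own range, and Ltf, Lrg1, Cd177 and Itgb2l show the widest gaps between the groups, while Mmp8 and Mmp9 overlap.

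Among the genes of proteins stored inside the granule, the mRNA of Ltf, which encodes the iron-binding antimicrobial protein lactoferrin, was lower with the inhibitor. Ltf had log2 intensities of 11.57, 11.11 and 11.47 in V2, V3 and V4, and of 10.41, 10.64, 10.62 and 10.45 in R1, R2, R3 and R4. Every vehicle mouse lay above every inhibitor mouse, with a gap of 0.47 between the nearest values. The vehicle mean was 11.38 ± 0.24 (SD, n = 3) and the inhibitor mean 10.53 ± 0.12 (SD, n = 4). The log2 fold change was −0.85 (adjusted p = 0.0372 from limma, standard error 0.16), or 1.80-fold brighter with vehicle.

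Lrg1 encodes leucine-rich alpha-2-glycoprotein, a secreted modulator of TGF-β signaling that human neutrophils store in granules and that liver and endothelium make as well. Lrg1 had log2 intensities of 6.88, 6.99 and 7.54 in V2, V3 and V4, and of 5.17, 5.56, 4.92 and 4.40 in R1 to R4. The groups were 1.32 apart at their nearest values, the widest gap among the 10 genes, and R4 lay lowest. The vehicle mean was 7.14 ± 0.35 (SD, n = 3) and the inhibitor mean 5.01 ± 0.49 (SD, n = 4). Lrg1 thus fell by 2.12 on the log2 scale (adjusted p = 0.0178 from limma, standard error 0.28), or 4.36-fold brighter with vehicle.

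Lipocalin-2, which captures bacterial siderophores and is encoded by Lcn2, was near the top of every array. Lcn2 had log2 intensities of 12.62, 12.17 and 12.33 in V2, V3 and V4, and of 12.12, 12.19, 12.15 and 12.13 in R1 to R4. Its row ranked 1 in brightness on 5 of the 7 arrays, 2 on R1 and 3 on R4, where brightness depends on the probes as well as on the RNA. The inhibitor mice lay within a narrow band, and V3 fell inside it. The log2 fold change was −0.22 with a 95% interval of −0.57 to 0.12 (adjusted p = 0.581 from limma). It was −0.095 after a second quantile normalization and −0.41 after cyclic loess normalization, and passed in neither. Whether a place so near the top of the arrays limits the difference was not tested.

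The genes of cathelicidin (Camp), the precursor of an antimicrobial peptide, and of neutrophilic granule protein (Ngp), a relative of the cathelicidins and cystatins, had overlapping groups. Camp had log2 intensities of 11.30, 11.46 and 10.89 in V2, V3 and V4, and between 10.94 and 11.04 in the 4 inhibitor mice, so that V4 lay below all of them. Its log2 fold change was −0.23 with a 95% interval of −0.60 to 0.15 (adjusted p = 0.619 from limma). Ngp lay at 12.24, 11.97 and 12.12 in V2, V3 and V4, and between 11.89 and 12.06 with the inhibitor, with R3 above V3. The Ngp difference was −0.15 with a 95% interval of −0.47 to 0.17 (adjusted p = 0.716 from limma). After cyclic loess normalization Camp differed by −0.40 and Ngp by −0.33, and neither passed. The row of Ngp ranked 2 to 6 in brightness on the arrays, and whether this limits its difference was not tested. The difference of Camp or Ngp from Ltf was not tested.

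Chil3 encodes the chitinase-like lectin Ym1, which mouse neutrophils, monocytes and some macrophages make, and probes shared with its near-identical relative Chil4 were not examined. Chil3 had log2 intensities of 10.93, 10.92 and 10.79 in V2, V3 and V4, and of 10.77, 10.67, 10.67 and 10.46 in R1 to R4. The groups did not overlap, but V4 and R1 were only 0.015 apart. The log2 fold change was −0.24 with a 95% interval of −0.56 to 0.085 and did not pass the test (adjusted p = 0.512). It was −0.41 after cyclic loess normalization and did not pass there either.

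The mRNAs of both surface proteins of the list were lower. Cd177 encodes a glycolipid-anchored protein of the neutrophil surface and secondary granule, which binds PECAM-1 and, in human neutrophils, holds proteinase 3. Cd177 had log2 intensities of 10.07, 9.32 and 9.72 in V2, V3 and V4, and of 8.38, 8.48, 8.52 and 8.42 in R1 to R4. The inhibitor mice lay within 0.13 of each other, and the vehicle mice were more spread, with V2 highest. Means were 9.70 ± 0.38 with vehicle (SD, n = 3) and 8.45 ± 0.060 with the inhibitor (SD, n = 4). Cd177 fell by 1.25 on the log2 scale (adjusted p = 0.0204 from limma, standard error 0.19), or 2.38-fold brighter with vehicle.

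Itgb2l encodes an integrin β chain related to CD18 and found in mouse neutrophils. Itgb2l had log2 intensities of 9.13, 9.06 and 9.14 in V2, V3 and V4, and of 8.32, 8.13, 7.99 and 7.50 in R1 to R4. Here the vehicle mice were close together and the inhibitor mice spread, with R4 lowest. Means were 9.11 ± 0.045 with vehicle (SD, n = 3) and 7.98 ± 0.35 with the inhibitor (SD, n = 4). Itgb2l fell by 1.12 on the log2 scale (adjusted p = 0.0284 from limma, standard error 0.20).

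The metalloproteinase genes of the list had overlapping groups. Mmp8 encodes the neutrophil collagenase of secondary granules, and Mmp9 encodes gelatinase B, which marks tertiary granules and is made by macrophages too. Mmp8 had log2 intensities of 9.88, 9.60 and 10.27 in V2, V3 and V4, and of 9.87, 10.17, 9.92 and 9.94 in R1 to R4, so that the vehicle mice enclosed the inhibitor mice. Its log2 fold change was 0.056 with a 95% interval of −0.36 to 0.47 (adjusted p = 0.939), and −0.11 after cyclic loess normalization. Mmp9 lay at 8.81, 8.69 and 9.43 in V2, V3 and V4, and at 8.06, 8.83, 8.84 and 8.88 in R1 to R4. Of the inhibitor mice, R1 stood below the others for Mmp9, which lay between V2 and V4. The Mmp9 difference was −0.32 with a 95% interval of −0.90 to 0.25 (adjusted p = 0.655).

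Within the vehicle group the same mouse was not high for every gene. V2 was highest and V3 lowest for Ltf, Ngp, Lcn2 and Cd177. V4 was highest for Lrg1, Mmp8, Mmp9 and Itgb2l, and lowest for Camp and Chil3. With the inhibitor, R4 was lowest for Itgb2l, Lrg1 and Chil3 and highest for Camp and Mmp9. The mean log2 intensity of the 10 genes was 10.34, 10.13 and 10.37 in V2, V3 and V4, and 9.60, 9.75, 9.67 and 9.52 in R1 to R4. After the mean of each group was removed, the genes outside all lists that followed this mean most closely over the 7 mice were Tmed8, Pou2af1, Gata4, Gga1, Trex2, Wfikkn1, L1cam and Zfp36, with Pearson correlations from 0.996 down to 0.974. Of these 8 rows, only Wfikkn1 and Zfp36 lay above the upper quartile of every array (3.35 to 3.68), and without any 1 mouse between 1 and 3 of the 8 stayed among the closest. The correlations were picked as the highest of many over 7 mice, so their size is in part a product of that choice.

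The rows of the 10 genes fell into 3 ranges of brightness, which gives no order of levels between genes. Ranked by brightness over all arrays, 6 of the 10 genes, Lcn2, Ngp, Camp, Ltf, Chil3 and Mmp8, were among the first 100 rows, and Ltf was the one of them that was lower past the threshold. Cd177, Itgb2l and Mmp9 were among rows 101 to 500, and Lrg1 among rows 501 to 2000. Of all rows in these 3 ranges, 10.0%, 12.5% and 10.5% passed the test, against 1.37% of the 20139 dimmer rows. Of the first 100 rows, 8 were called lower and 2 higher. The counts were 25 lower and 25 higher in rows 101 to 500, and 56 lower and 102 higher in rows 501 to 2000. The median size of the log2 difference was 0.38 among the first 100 rows, 0.49 in rows 101 to 500 and 0.50 in rows 501 to 2000. The part of brightness in the results was not tested.

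**Figure D2:**
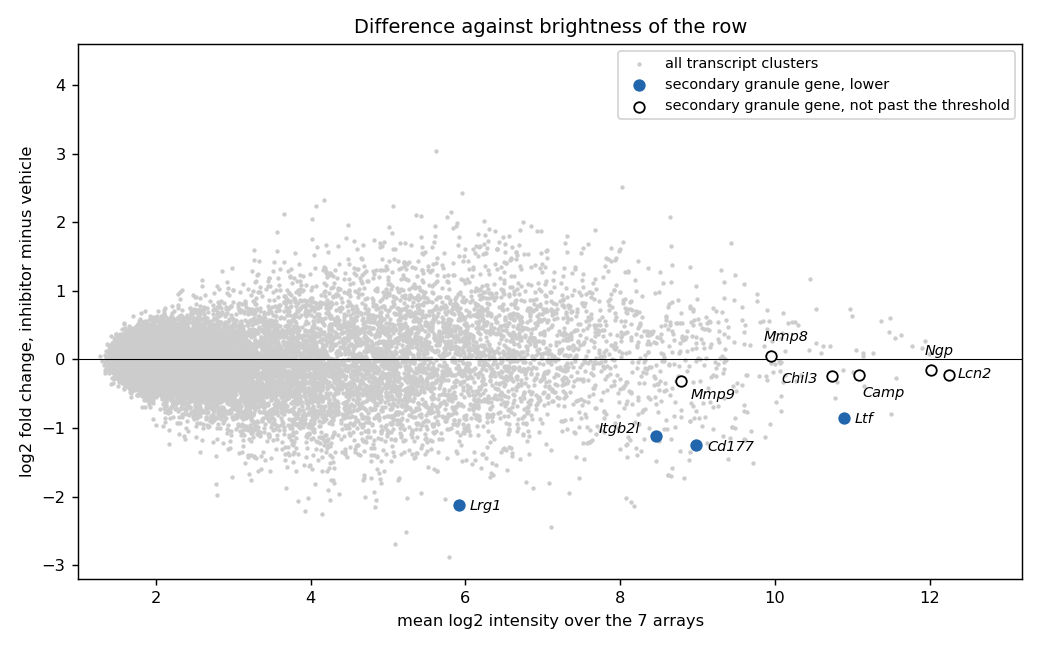
Log2 fold change of inhibitor minus vehicle against the mean log2 intensity over the 7 arrays, with all transcript clusters in grey, the 4 secondary granule genes past the threshold in blue and the other 6 as open circles. Lcn2 and Ngp sit at the bright end near 0, while Cd177, Itgb2l, Ltf and Lrg1 lie between −0.85 and −2.12.

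Without R1 all 4 genes kept an adjusted p under 0.05. Without R2, R3, R4 or V2 none of them did, with adjusted p from 0.0505 to 0.140 from limma, while Cd177 kept its call without V3 and both Cd177 and Lrg1 without V4.

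Other genes of secondary and tertiary granules, from a list written from general knowledge with earlier results in view, were measured for 22 of 25 symbols. Of these, 5 were lower, 1 was higher and 16 did not pass, with a median log2 fold change of −0.52 against the 0.0049 of all transcript clusters. Over all transcript clusters, 1.17% were called lower and 1.06% higher. Itgb2, which encodes CD18, the β chain that pairs with CD11b, lay at 8.96, 8.72 and 9.03 in V2, V3 and V4 and at 7.93, 7.64, 7.33 and 7.04 in R1 to R4. Every inhibitor mouse lay below every vehicle mouse, and Itgb2 fell by 1.42 on the log2 scale (adjusted p = 0.0212 from limma, standard error 0.22), and probes shared between Itgb2 and its relative Itgb2l were not examined. Itgam, which encodes CD11b itself and was used for the sort, differed by −0.42 (adjusted p = 0.378), with R1 at 8.56 below the other inhibitor mice (9.06 to 9.15).

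The sulfhydryl oxidase gene Qsox1 had the largest fall of these 22 genes, from 7.50, 6.38 and 6.83 in V2, V3 and V4 to 4.89, 5.16, 4.97 and 4.44 in R1 to R4 (log2 fold change −2.04, adjusted p = 0.0178). The membrane protease Adam8 fell by 1.30, the membrane-bound metalloproteinase Mmp25 by 1.07 and the urokinase receptor Plaur by 1.07 on the log2 scale. Mmp25 did not pass with a robust trended variance (adjusted p = 0.0533), nor Plaur with median centring (adjusted p = 0.0522). Snap23, a membrane fusion protein of granule release, rose by 1.37 (adjusted p = 0.0397). Haptoglobin (Hp), at −0.94 (adjusted p = 0.0625), the peptidoglycan-binding Pglyrp1, at −0.85 (adjusted p = 0.104), and the oxidase subunit Cyba, at −0.59 (adjusted p = 0.0959), had no overlap between the groups and did not pass. Hp passed with a robust trended variance (adjusted p = 0.0362 from limma), after cyclic loess normalization (0.0290) and without the dimmest 25% of rows (0.0498). Cyba passed after cyclic loess normalization (adjusted p = 0.0431). The lysozyme gene Lyz2 differed by −0.27 on the log2 scale (adjusted p = 0.454) and Retnlg, a resistin-like gene of neutrophils, by 0.31 (adjusted p = 0.410). Without R2, R3, R4 or V2 none of the 22 genes was called lower, and without V3 1 was.

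**Figure D3:**
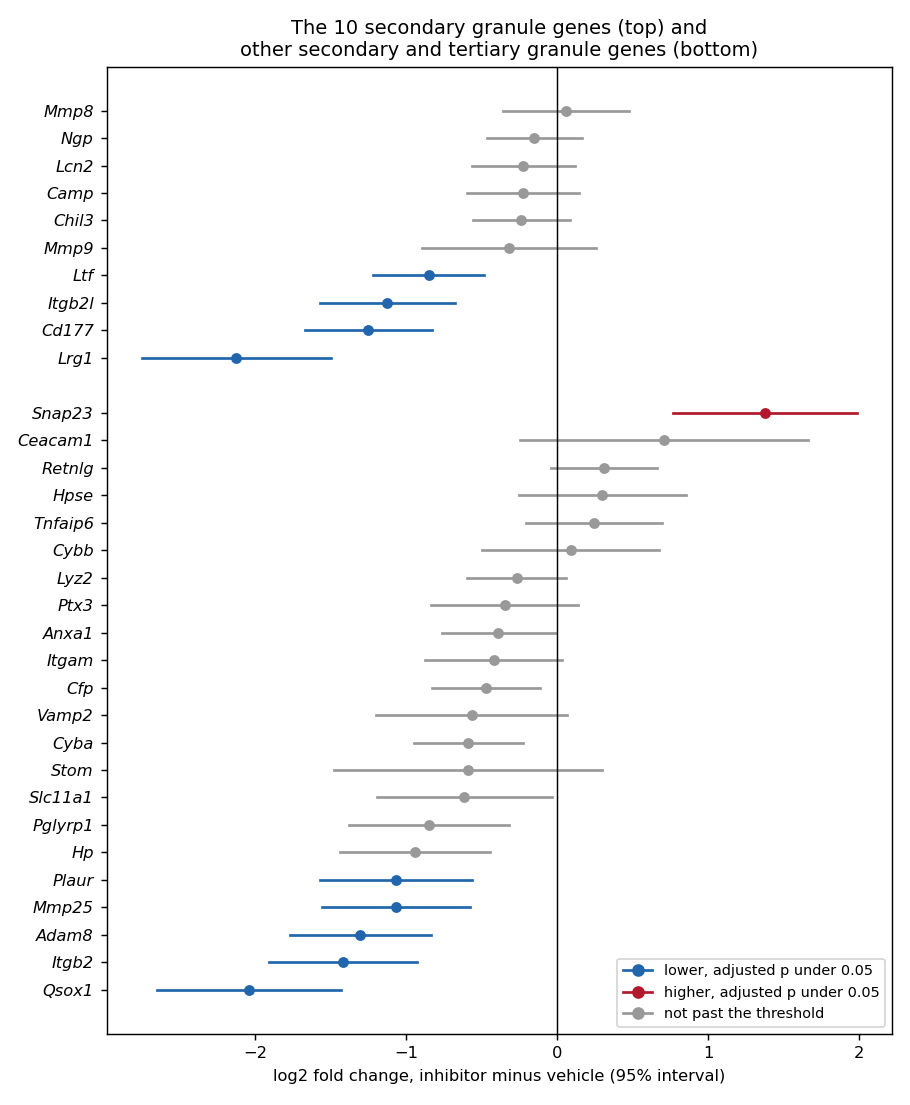
Log2 fold change of inhibitor minus vehicle with its 95% interval from limma for the 10 secondary granule genes (top) and 22 other secondary and tertiary granule genes (bottom), blue where lower and red where higher past an adjusted p of 0.05. Lrg1 and Qsox1 lie farthest to the left at −2.12 and −2.04, and Snap23 is the one gene called higher at 1.37.

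Among 12 measured regulators of granule genes, Cebpe, the gene of C/EBPε, was the one past the threshold in the comparison as described. Cebpe had log2 intensities of 6.70, 6.86 and 5.96 in V2, V3 and V4, and of 5.19, 4.93, 5.20 and 4.35 in R1 to R4. The groups did not overlap, and Cebpe fell by 1.59 on the log2 scale (adjusted p = 0.0279 from limma, standard error 0.27). The related Cebpd differed by −1.37 on the log2 scale (adjusted p = 0.0524, and 0.0292 to 0.0357 under 5 alternatives of variance, weights, normalization and rows) and Cebpa, between 2.22 and 3.06 in all mice, by −0.30 (adjusted p = 0.514). The median of the 12 regulators was −0.41, with 10 below 0, against a median of 0.0049 over all transcript clusters. Of these 12 rows, 6 lay above the upper quartile of every array. Of 15 measured partners of the proteins, such as receptors and protease inhibitors, 1 was lower, again Itgb2, and none was higher (median −0.043). Of these 15 rows, 7 lay above the median of every array (2.14 to 2.19). Whether the dimness of the rest hid a difference was not tested. Over all transcript clusters, 1.17% were called lower. Among the partners the chitinase-like Chil1, a relative of Chil3, differed by −0.89 on the log2 scale (adjusted p = 0.0513) and Tgfb1 by 0.65 (adjusted p = 0.270). Chil1 passed after a second quantile normalization (adjusted p = 0.0469 from limma), after cyclic loess normalization (0.0230) and without the dimmest 25% of rows (0.0444).

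The same comparison in genes of earlier and later neutrophil stages gave different counts. Of 10 primary granule genes 3 were lower and none was higher, with a median log2 fold change of −0.82, while 1.17% and 1.06% of all transcript clusters were called in these directions. Myeloperoxidase (Mpo), proteinase 3 (Prtn3), the partner of CD177 in human neutrophils, and ficolin B (Fcnb) fell by 1.62, 1.59 and 1.08 on the log2 scale, though Fcnb did not pass with median centring (adjusted p = 0.0552). Elane, the gene of elastase, had the largest fall of the list at −1.73 (adjusted p = 0.0571 from limma). It was lower in every inhibitor mouse and did not pass. Srgn, the gene of the granule proteoglycan serglycin, and Cd63, that of a granule membrane tetraspanin, lay higher in every inhibitor mouse, by 1.17 (adjusted p = 0.0803) and 0.75 on the log2 scale (adjusted p = 0.0863), and did not pass. Of 16 measured genes of mature neutrophils none was lower and 4 were higher, with a median of the list at 0.17. The 4 were the lectin Clec4d, the stefins Stfa2 and Stfa2l1, which have near-identical copies, and Il1b. Which cells of the mixed CD45+CD11b+ gate made these RNAs was not measured. In the same list 5 genes lay below 0, and Asprv1, Selplg and Hdc were lower in every inhibitor mouse without passing, at −1.10 (adjusted p = 0.0662), −0.83 (adjusted p = 0.0513) and −0.74 (adjusted p = 0.0928). Hdc is also in the basophil and mast cell list, and it passed after cyclic loess normalization (adjusted p = 0.0387 from limma). The groups overlapped for Cxcr2, Csf3r and Il1r2, which differed by 0.015, −0.014 and 0.0079 on the log2 scale. The mean log2 intensity of the mature list was 7.87 to 8.18 in the vehicle and 8.17 to 8.66 in the inhibitor mice, and that of the primary granule list 7.22 to 7.60 and 6.42 to 7.41. S100a8 and S100a9, the most abundant cytosolic proteins of neutrophils, differed by 0.073 (adjusted p = 0.883) and by 0.27 on the log2 scale (adjusted p = 0.442), and S100a8 by −0.11 after cyclic loess normalization. For S100a9 every inhibitor mouse lay above every vehicle mouse, with a gap of 0.074 between the nearest values. The 2 rows lay between 11.77 and 12.25 in all mice, near the top of the arrays. Whether this limits their differences was not tested. Without R2, R3, R4 or V2 no gene of any list outside the 10 members passed, and without V3 3 did, against 16 with all mice. Differences between these lists were not tested.

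**Figure D4:**
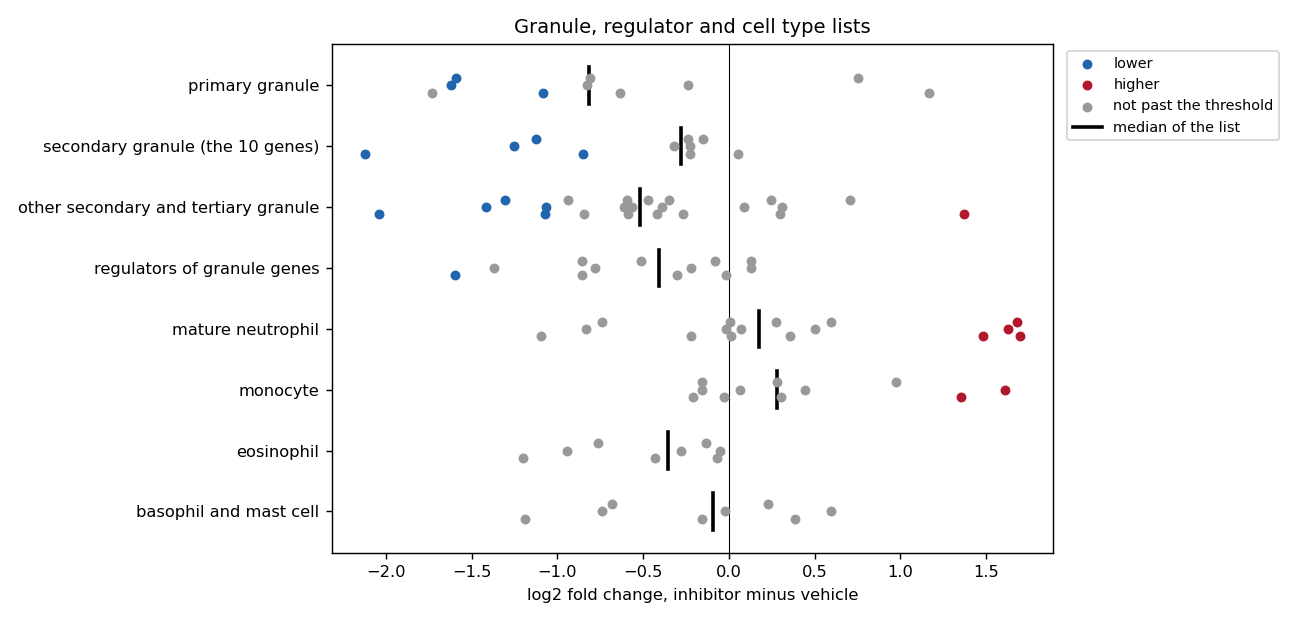
Log2 fold change of inhibitor minus vehicle for each measured gene of 8 lists, with blue for lower, red for higher, grey for genes not past an adjusted p of 0.05 and a black line at the median of the list. The medians run from −0.82 for primary granule and −0.28 for the 10 secondary granule genes to 0.17 for mature neutrophil and 0.28 for monocyte genes.

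Markers of other cells of the CD45+CD11b+ gate moved with the groups to a varying degree, and their part in the granule gene results was not tested. Of 11 measured monocyte genes 2 were higher, Clec4a3 by 1.61 and Ms4a4c by 1.35 on the log2 scale, while 1.06% of all transcript clusters were called higher. The other 9 did not pass, and of the 11 genes 7 lay above 0 and 4 below (median 0.28). The mean of the monocyte list was 5.77 to 6.55 in vehicle and 6.42 to 6.86 in inhibitor mice. Ly6c2, the defining marker of inflammatory monocytes, differed by −0.16 on the log2 scale (adjusted p = 0.800). All 8 eosinophil genes lay below 0 (median −0.35), with means of 3.61 to 4.05 in vehicle and 2.64 to 4.01 in inhibitor mice, and none passed. None of the 8 basophil and mast cell, 10 macrophage, 8 dendritic, 7 T and NK, 6 B and plasma, and 6 erythroid and platelet genes passed either. The mean of the basophil and mast cell list was 6.34 to 6.81 in vehicle and 5.80 to 6.77 in inhibitor mice, and those of the last 5 lists lay between 1.60 and 2.92 in every mouse. Single genes were brighter. H2-Ab1 of the dendritic list lay at 5.52 to 8.02 and differed by −1.12 (adjusted p = 0.247 from limma). Slc40a1 of the macrophage list lay at 5.62 to 6.71 and differed by −0.57 (adjusted p = 0.182 from limma). Above 0 were 6 of the 8 dendritic and 2 of the 10 macrophage genes. The defining marker of neutrophils, Ly6g, has no row named here.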

How the data were processed

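CD45+CD11b+ spleen cells of 7 mice were hybridised to Affymetrix Clariom S Mouse arrays. The authors normalized the arrays by RMA and summarized them to genes with pd.clariom.s.mouse. The values they deposited are log2 intensities, and the labels also name oligo. Their versions and the annotation's genome build are not given in the sources used here. RMA includes quantile normalization of the probes, which can hide a shift shared by most genes, yet the upper quartiles of the deposited arrays still range from 3.35 to 3.68. It was not repeated. Depth has no counterpart on arrays, where the number of arrays limits the precision.

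Of 22203 rows, the 22139 transcript clusters were tested (64 other rows entered 1 alternative), and 19527 carry 1 symbol in GEO's platform annotation. A gene with several rows was represented by the brightest, and each of the 10 genes has 1 row. Groups were compared with limma 3.58.1 (lmFit, eBayes, no covariates, two-sided, R 4.3.3), with Benjamini-Hochberg adjustment over all transcript clusters at 0.05, as in the methods. In simulated arrays of 22139 rows, the fit recovered 52 of 100 changes of 1 and 90 of 100 of 2 on the log2 scale, with 8 unchanged genes called. Likeness was the Pearson correlation after group means were removed. Motifs were searched in RefSeq promoters. Python 3.11.15, pandas 2.3.3 and matplotlib 3.10.9 made tables and plots.

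Members, gene lists and motifs were chosen with earlier results of these data known. By rule, the named genes were the members, each list's called genes and 2 smallest p, and the 8 genes closest by correlation. The text adds Hp, Pglyrp1, Cyba, Lyz2, Retnlg, S100a8, S100a9, Itgam, Ptprc, Cebpa, Tgfb1, Ly6c2 and Anxa1 after their values were seen. Elane, Srgn, Cd63, Asprv1, Selplg, Cxcr2, Csf3r and Il1r2 were added in the same way. It leaves to counts most genes of the cell type lists that did not pass. The fit was repeated with each mouse left out, with a block for the replicate number, with cyclic loess, median centring or a second quantile normalization, with array weights, with a robust trended variance, and on other sets of rows (without the dimmest 25%, with all rows, or with rows of 1 symbol).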

Additional observations from a re-analysis of the deposited data

Results flagged for a closer look

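For 4 of 55 genes examined, 1 of the 4 inhibitor mice lay far from the others relative to the range of the group, which chance gives in about 1 group in 20. Among the secondary granule genes this was Mmp9, where R1 had a log2 intensity of 8.06 and the others 8.83 to 8.88 (gap over range 0.941). For Itgam, R1 lay at 8.56 and the others at 9.06 to 9.15 (0.854). Anxa1, a gene of tertiary granules, was at 10.82 in R4 and at 11.03 to 11.05 in the others (0.877). The erythroid regulator Klf1 was at 2.26 in R1 and at 1.95 to 2.00 in the others (0.836).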

How the results depend on the processing

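Ltf, Cd177, Itgb2l and Lrg1 were lower past the threshold in each of the 8 alternatives of variance model, weights, normalization and rows. The median log2 fold change of the 10 genes was −0.44 after cyclic loess normalization, and the log2 fold changes of Mmp8 and S100a8 turned to −0.11 each. The fit with the replicate number as a block also drops R1, which has no partner. It called 964 transcript clusters, against 1035 without R1 and no block and 494 with all mice, and Ltf lost its call (adjusted p = 0.0716 from limma, 0.0410 without R1 and no block) while the other 3 kept theirs. Deviations of same-numbered mice correlated at 0.096, −0.13 and −0.032, and those of differently numbered mice at −0.13 to 0.18. With so few mice these values cannot show whether the numbers mark pairs, and the main comparison did not use pairs. Leaving out 1 mouse gave 0 to 4 members called lower, with medians of −0.39 to −0.25, and 2 to 1035 transcript clusters called. The fewest were called without R2, R4 or V2 (2 each) and without R3 (4), then 34 without V3, 534 without V4 and 1035 without R1. With each mouse left out, 4 or 5 of the 10 genes had an unadjusted p under 0.05, and the log2 fold change of Mmp8 ranged from −0.10 to 0.23. With 1 mouse left out, genes of the other lists called ranged from 0 to 23 (16 with all mice), the other secondary and tertiary granule genes called lower from 0 to 6 (5 with all mice, 7 after cyclic loess), and the closest genes by correlation kept from 1 to 3 of 8.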
